A study of Mus musculus with 3 samples.

Results

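The 7 genes described here belong to cholesterol synthesis and to the cell's response to sterols. Hmgcs1, Idi1, Fdps, Sqle, Lss and Cyp51 encode enzymes of the pathway, and Insig1 encodes a membrane protein that holds back its activator when sterols are plentiful. They were chosen by symbol, with earlier results of these data known. They are 7 of the 51912 genes in the list of features, and each matched a single entry. The shares of all genes given below thus stand beside a set that was not picked independently of these data. Their transcripts were counted by single-cell RNA sequencing (scRNA-seq) in 3 libraries of sorted mouse intestinal epithelium. The Arid3a cKO libraries, here cKO 1 and cKO 2, came from VillinCreERT2; Arid3a fl/fl mice, in which the Villin promoter drives a tamoxifen-dependent recombinase in intestinal epithelial cells that removes the floxed gene. The WT library carried VillinCreERT2 alone, so the recombinase was common to both genotypes. Tamoxifen was also common to both: every mouse received it at an age of 8 to 10 weeks, and tissue was taken 1 month after the first dose. The design text calls the libraries biological replicates, and a second WT library was not analysed here. With 2 cKO libraries against 1 WT library, every test below takes its spread from the cKO libraries and assumes that WT varies likewise. Where 3 values follow each other below, they stand for cKO 1, cKO 2 and WT in that order.

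After removal of cells with under 1000 detected genes or over 15% mitochondrial transcripts, 1550 to 2134 cells and 58169310 to 70922480 unique molecular identifiers (UMIs, each standing for 1 captured transcript) remained per library. The targeted gene, Arid3a, was counted by 42 UMIs in cKO 1 (0.592 CPM, counts scaled to the same total in each library), 52 in cKO 2 (0.894 CPM) and 161 in WT (2.57 CPM). UMIs are read near the 3′ end of a transcript, so this count did not measure the deleted part on its own. The sort markers had the labelled pattern, with Epcam at 1665 to 1969 CPM, Ptprc (CD45) at 0.550 to 1.45 CPM and Pecam1 (CD31) at 0.282 to 0.430 CPM. The labels name the tissue only as intestine. Of 5 genes of the proximal small intestine, S100g (1068, 1364 and 523 CPM, edgeR adjusted p = 0.0105) and Slc40a1 (51.7, 57.8 and 34.8 CPM, edgeR adjusted p = 0.041) were called higher in cKO over all cells, while the regulator Gata4 was at 45.4 to 54.7 CPM and none of 4 distal genes was called by edgeR or DESeq2 (0 with an unadjusted p below 0.05), Fabp6 at 1.17 to 1.55 CPM among them. Clustering, from which 59 sterol and fatty acid genes were left out, gave 971 ISC-like cells (intestinal stem cells at the crypt base), 699 TA-like cells (their dividing, transit-amplifying daughters), 3127 enterocyte-like cells in 5 clusters and 4 smaller secretory and tuft classes. No more than 2 barcodes of kept cells were shared by any pair of libraries.

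Cholesterol is built from acetyl-CoA through mevalonate, isoprenoid phosphates, squalene and lanosterol. Cells read the sterol content of the endoplasmic reticulum. When it falls, the transcription factor SREBP2, encoded by Srebf2, is released to the nucleus and raises the genes of this pathway. When sterols are plentiful, Insig1 holds SREBP2 and its escort Scap in the membrane, and Insig1 is itself raised by SREBP2. Dividing crypt cells need sterols for new membrane, while enterocytes on the villus can also take up cholesterol from the gut lumen through Npc1l1.

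The enzymes act in the order Hmgcs1, Idi1, Fdps, Sqle, Lss and Cyp51. Hmgcs1 (ENSMUSG00000093930, chromosome 13, 119690379 to 119708260, plus strand) makes HMG-CoA in the cytosol. Idi1 (ENSMUSG00000058258, chromosome 13, 8885501 to 8892451, plus strand) interconverts both isoprenoid building blocks, and Fdps (ENSMUSG00000059743, chromosome 3, 89093588 to 89101959, minus strand) joins them into farnesyl pyrophosphate. Sqle (ENSMUSG00000022351, chromosome 15, 59315077 to 59331192, plus strand) puts the first oxygen on squalene, Lss (ENSMUSG00000033105, chromosome 10, 76531588 to 76557138, plus strand) closes the rings to lanosterol, and Cyp51 (ENSMUSG00000001467, chromosome 5, 4081145 to 4104746, minus strand) demethylates it. Insig1 (ENSMUSG00000045294, chromosome 5, 28071363 to 28078662, plus strand) is the membrane anchor of SREBP2 and Scap. All 7 are protein-coding, and the coordinates are those of GENCODE M21 on GRCm38, matched by gene identifier.

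Because most of these genes moved together below, the 250 bases before the RefSeq start of each gene were read on GRCm38.p6 for the 5 of the 7 that the promoter table holds (Hmgcs1, Idi1, Lss, Cyp51 and Insig1). The sterol element form TCACNCCAC, on either strand, was present in Hmgcs1 alone among them, 137 to 129 bases before the start, against 1.05% of all 32851 promoters of that length. The shorter form CACNCCAC, which overlaps it, was present in Hmgcs1 and in Insig1, there on the opposite strand 9 to 2 bases before the start, against 5.29% of promoters. The E-box CACGTG was found in Insig1, 101 to 96 bases before its start, against 6.02% of promoters. CCAAT and GGGCGG were each present in all 5, against 33.8% and 32.7% of promoters. By the GENCODE coordinates above, the CCAAT and GGGCGG of Idi1, the CCAAT of Cyp51 and the CACNCCAC of Insig1 lie inside the gene. A match is a match of letters, not a bound site. The stretches of Hmgcs1 (chr13:119690101-119690350, plus strand) and Insig1 (chr5:28071162-28071362, plus strand, the part that also precedes its GENCODE start) are shown because they carry the sterol element and the E-box, which are in capitals:
Hmgcs1: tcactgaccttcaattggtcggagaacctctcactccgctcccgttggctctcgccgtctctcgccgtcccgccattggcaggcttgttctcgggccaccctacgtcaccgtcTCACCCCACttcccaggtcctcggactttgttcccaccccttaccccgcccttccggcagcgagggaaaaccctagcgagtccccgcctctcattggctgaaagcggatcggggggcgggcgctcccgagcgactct
Insig1: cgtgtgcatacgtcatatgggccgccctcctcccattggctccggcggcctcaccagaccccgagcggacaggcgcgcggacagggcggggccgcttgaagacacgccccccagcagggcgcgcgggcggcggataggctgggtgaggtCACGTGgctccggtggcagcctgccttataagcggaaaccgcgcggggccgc

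In ISC and TA cells as 1 group, all 7 genes were higher in both cKO libraries than in WT, and 6 of the 7 passed the test. Over all genes tested, 32.9% had both cKO libraries above WT and 0.602% were called higher (edgeR's quasi-likelihood test, Benjamini-Hochberg adjusted p at or below 0.05, 14294 genes). The summed level of the 7 genes was 442 CPM in cKO 1, 430 CPM in cKO 2 and 275 CPM in WT, a ratio to WT of 1.61 and 1.56. The median over the 7 of the log2 ratio of CPM + 5 was 0.58, against 0.00 over all genes tested.

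Hmgcs1, the first enzyme of the 7, stood at 109 CPM in cKO 1, 90.9 CPM in cKO 2 and 58.1 CPM in WT. Both cKO libraries lay well above WT, further than they lay from each other, and the log2 fold change was 0.79 ± 0.16 (SE; edgeR adjusted p = 0.000138). Idi1 was at 99.5, 99.8 and 67.9 CPM in the same order, so the cKO libraries were close to each other and WT was apart from them (0.56 ± 0.15, edgeR adjusted p = 0.0253). Fdps was at 66.1, 78.0 and 46.3 CPM, with cKO 2 the highest (0.64 ± 0.16, edgeR adjusted p = 0.00897). These enzymes form the isoprenoid arm of the pathway, ahead of squalene.

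Sqle, a control point after squalene, was at 39.8 CPM in cKO 1, 38.7 CPM in cKO 2 and 26.0 CPM in WT (0.60 ± 0.16, edgeR adjusted p = 0.0221). Lss, the ring-closing enzyme, was at 11.5, 9.14 and 6.97 CPM from only 151 to 266 UMIs per library, and its log2 fold change of 0.57 ± 0.20 did not pass (edgeR adjusted p = 0.208). Cyp51 was at 60.1, 55.2 and 34.9 CPM (0.73 ± 0.17, edgeR adjusted p = 0.00249). The order of the libraries was thus cKO above WT on both sides of squalene.

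Insig1, the anchor, was at 56.1 CPM in cKO 1, 57.7 CPM in cKO 2 and 35.1 CPM in WT, a log2 fold change of 0.70 ± 0.17 (edgeR adjusted p = 0.00431). The cKO libraries differed by under 2 CPM and neither came near WT. The number of the 7 called fell from 6 to 2 with DESeq2 (Hmgcs1 and Cyp51), to 1 without TMM normalization factors (Hmgcs1) and to 3 with wider limits on cells (Hmgcs1, Cyp51 and Insig1), while each of the 7 log2 fold changes stayed positive. The plot of levels by library shows these values beside those of enterocytes.

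**Figure D1:**
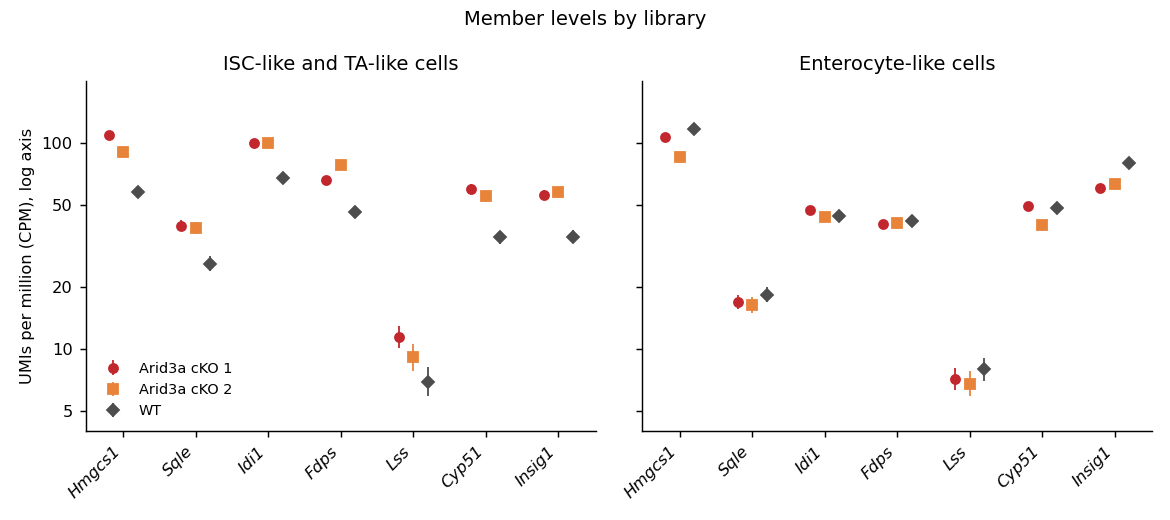
Levels of the 7 genes in CPM (log axis) by library, in ISC-like and TA-like cells (left) and in enterocyte-like cells (right); points are libraries and bars are 95% Poisson intervals, which cover counting error only and are often smaller than the point. On the left both cKO points lie above WT for every gene; on the right Insig1 is lower in both cKO libraries (60.9 and 63.3 CPM against 80.4 CPM) while Hmgcs1 and Cyp51 in cKO 1 lie near WT and in cKO 2 below it.

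Within the TA-like cluster alone the ratio to WT was 1.78 in cKO 1 and 1.71 in cKO 2. The summed level was 560 CPM in cKO 1, 539 CPM in cKO 2 and 315 CPM in WT, and the 95% counting interval of WT (305 to 326 CPM) lay far below those of both cKO libraries (546 to 574 and 525 to 553 CPM). All 7 genes were higher in both cKO libraries, where 33.7% of all genes were, and Hmgcs1, Sqle, Idi1, Fdps, Cyp51 and Insig1 were called higher, where 0.264% of genes were. Hmgcs1 was at 146, 119 and 70.4 CPM (log2 fold change 0.91, edgeR adjusted p = 0.00167), and Cyp51 was at 73.4, 68.7 and 38.0 CPM (0.90, edgeR adjusted p = 0.00161). Lss, at 12.9, 11.2 and 7.20 CPM, was not called (0.74, edgeR adjusted p = 0.263). DESeq2 called 2 of the 7 in this cluster (Hmgcs1 and Cyp51).

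In ISC-like cells the order was the same and the ratio to WT smaller (1.45 and 1.30). Their summed level was 338, 305 and 233 CPM, and the order cKO above WT held for each of the 7 genes. Only Hmgcs1 passed among the 7 (76.4, 59.0 and 45.1 CPM, log2 fold change 0.59, edgeR adjusted p = 0.0343), where 0.332% of genes were called higher, and neither DESeq2 nor edgeR without TMM factors called it. The tests within single clusters were added after the data had been seen. TA-like cells were 11.2%, 13.3% and 13.3% of the libraries and ISC-like cells 18.4%, 15.9% and 17.3%.

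In enterocytes as a whole the picture was different. The summed level was 329 CPM in cKO 1, 297 CPM in cKO 2 and 358 CPM in WT. The early cluster, in which the 7 genes were high, made up 30.3%, 25.5% and 23.5% of these cells, the cluster led by Akp3 and S100g 13.8%, 20.5% and 15.9% and the most mature cluster 28.3%, 31.4% and 33.4%. Both cKO libraries were below WT for 5 of the 7 genes, against 36.6% of all genes tested, and only Insig1 was called lower, where 1.83% of genes were called lower. Insig1 was at 60.9, 63.3 and 80.4 CPM (log2 fold change -0.38 ± 0.09, edgeR adjusted p = 0.0244). DESeq2 (adjusted p = 0.545), a filter at a mean of 20 CPM (edgeR adjusted p = 0.14) and wider limits on cells (edgeR adjusted p = 0.064) each lost this call.

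The other 6 genes were not called over all enterocytes. Hmgcs1 was at 107, 85.9 and 117 CPM, with a gap between the cKO libraries larger than that from cKO 1 to WT (log2 fold change -0.29 ± 0.11, edgeR adjusted p = 0.165). Idi1, at 47.4, 43.8 and 44.2 CPM, and Fdps, at 40.3, 40.7 and 41.7 CPM, had nearly equal levels in the 3 libraries. Sqle was at 16.9, 16.4 and 18.3 CPM, Lss at 7.18, 6.81 and 7.99 CPM, and Cyp51 at 49.7, 39.8 and 48.2 CPM. Summed over all epithelial cells, none of the 7 was called by edgeR (2 had an unadjusted p below 0.05) or by DESeq2, where edgeR called 0.696% of 16670 genes in either direction.

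The enterocyte-like clusters did not behave alike. In the early enterocyte-like cluster, led by Gm8989, Ccl20 and Vstm2l, the summed level was 572 CPM in cKO 1, 548 CPM in cKO 2 and 501 CPM in WT. None of the 7 genes was called there by edgeR (0 with an unadjusted p below 0.05) or by DESeq2. Of 11766 genes, edgeR called 83 higher and 68 (0.578%) lower. In the most mature cluster, led by Dnase1, Cubn and Slc5a12, the summed level was 156, 157 and 284 CPM. Most mature means here the highest mean Apoa4 among the tested enterocyte-like clusters. In that cluster all 7 genes were lower in both cKO libraries, against 37.8% of all genes, and 6 were called lower, against 1.75%. The intermediate cluster led by Ms4a18 (315, 274 and 388 CPM) had 3 of the 7 called lower, against 1.63%, and the cluster led by Akp3 and S100g (173, 160 and 226 CPM) had 1, against 2.57%.

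In the mature cluster Hmgcs1 was at 52.7 CPM in cKO 1, 48.5 CPM in cKO 2 and 97.6 CPM in WT (log2 fold change -0.94, edgeR adjusted p = 4.56e-15). Sqle was at 4.71, 3.62 and 10.3 CPM (-1.28, edgeR adjusted p = 3.32e-05), and Cyp51 at 20.3, 18.1 and 38.1 CPM (-0.98, edgeR adjusted p = 1.62e-08). For each of these enzymes the cKO libraries lay side by side and far below WT. Fdps was at 17.1, 19.3 and 30.9 CPM (-0.76, edgeR adjusted p = 6.27e-05), and Idi1 at 13.2, 12.4 and 20.6 CPM (-0.67, edgeR adjusted p = 0.00271).

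Insig1 in the mature cluster was at 45.9, 53.5 and 82.4 CPM (-0.72, edgeR adjusted p = 3.20e-08), so it was low along with the enzymes. Lss, at 1.70, 1.53 and 3.69 CPM from 37 UMIs in WT, was not called (-1.17, edgeR adjusted p = 0.133). DESeq2 called only Hmgcs1 of the 7 in this cluster and gave no adjusted p for Sqle and Lss. In the Ms4a18 cluster the called genes were Hmgcs1 (112, 82.8 and 133 CPM, edgeR adjusted p = 0.0155), Sqle (13, 11.2 and 19.6 CPM, edgeR adjusted p = 0.0243) and Insig1 (59.8, 58.3 and 91.5 CPM, edgeR adjusted p = 5.76e-05), and in the Akp3 cluster Hmgcs1 (54.8, 45.4 and 73.1 CPM, edgeR adjusted p = 0.0022). DESeq2 called none of the 7 in either cluster. In the Akp3 cluster the median mitochondrial share was 5.94%, 5.51% and 8.6%, 10 immune markers (2 of them at 0) summed to 18.3, 143 and 293 CPM with Ptprc at 0.781, 2.01 and 6.74 CPM, and 19 enterocyte markers summed to 78192, 80911 and 60233 CPM. The part of these in the Hmgcs1 call was not tested.

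**Figure D2:**
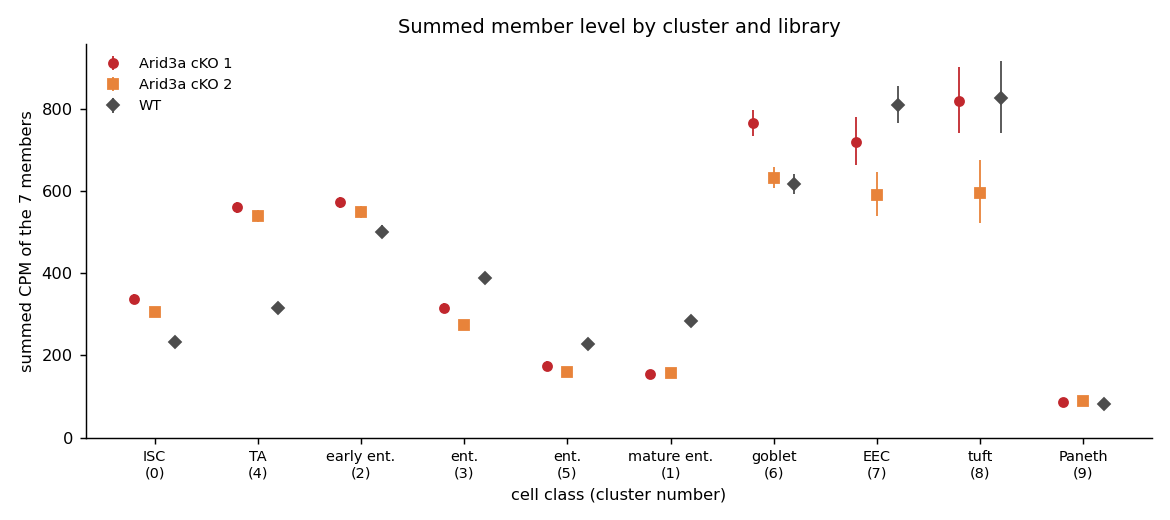
Summed level of the 7 genes in CPM by cluster, with 1 point per library and 95% Poisson intervals (counting error only); ent. is enterocyte-like and EEC enteroendocrine-like. cKO points lie above WT in ISC- and TA-like cells (560 and 539 against 315 CPM in TA) and below WT in the mature enterocyte-like cluster (156 and 157 against 284 CPM).

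The cKO effect in ISC and TA cells minus that in enterocytes was tested itself, with each library as its own reference. Both groups came from the same dissociated crypts, and this difference was added after the data had been seen. It was positive and called for 6 of the 7 genes, where 0.324% of 15128 genes were. It was largest for Insig1 (1.08 ± 0.14 on the log2 scale, edgeR adjusted p = 1.39e-07) and Hmgcs1 (1.07 ± 0.14, edgeR adjusted p = 1.08e-07). For Idi1 it was 0.51 ± 0.14 and just missed the threshold (edgeR adjusted p = 0.0586). In WT, TA-like cells held 1.11 times the summed level of the mature cluster. In cKO 1 and cKO 2 the same ratio was 3.60 and 3.43.

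The ratio of TA-like to mature cells differed between the libraries for every one of the 7. For Sqle it was 11.3 in cKO 1, 14.4 in cKO 2 and 3.03 in WT, and for Insig1 it was 1.52, 1.44 and 0.50. Insig1 was thus higher in mature cells than in TA-like cells in WT, and lower there in the cKO libraries. Hmgcs1 crossed in the same way (2.77, 2.45 and 0.72). Cyp51 was level between both cell types in WT (1.00) and higher in TA-like cells of the cKO libraries (3.62 and 3.8).

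The same crossing was seen along an order of single cells. That order was not independent of the clusters, which supplied its cells and its starting cell and rest on the same integrated data. ISC-, TA- and enterocyte-like cells were ordered by diffusion pseudotime from the crypt base to the mature enterocyte end and cut into 5 bins of equal size. The summed level in the first bin was 491 CPM in cKO 1, 477 CPM in cKO 2 and 288 CPM in WT. In the third bin, where all cells are enterocyte-like and the level peaked in WT, the libraries were close together at 512, 490 and 482 CPM. In the last bin the order was reversed, at 147, 149 and 267 CPM. The ratio of the mean of the cKO libraries to WT fell from 1.68 ± 0.03 (SD, n = 2) in the first bin to 1.04 ± 0.03 in the third and 0.55 ± 0.005 in the last.

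**Figure D3:**
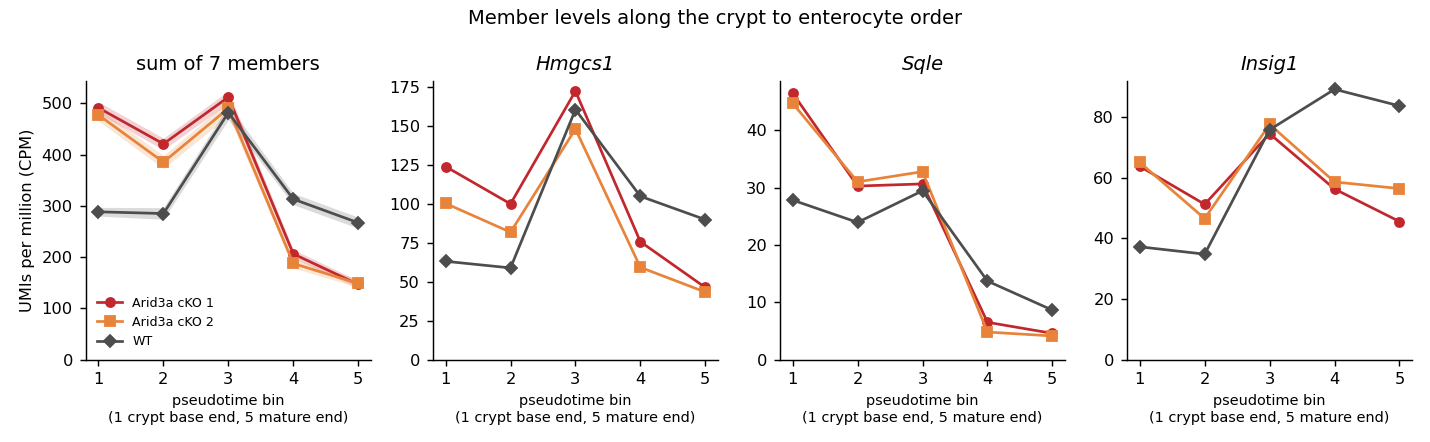
Levels in CPM in 5 pseudotime bins from the crypt base end (1) to the mature enterocyte end (5) for the sum of the 7 genes (with 95% Poisson bands, counting error only), Hmgcs1, Sqle and Insig1, by library. The cKO lines start above WT (491 and 477 against 288 CPM for the sum), meet it in bin 3 and end below it (147 and 149 against 267 CPM).

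Single genes followed this course from different heights. Hmgcs1 went from 124, 100.5 and 63.2 CPM in the first bin to 46.4, 43.4 and 90.0 CPM in the last. Sqle fell in every library, from 46.5, 44.8 and 27.8 CPM to 4.58, 4.13 and 8.64 CPM, but from a higher start to a lower end in both cKO libraries. Insig1 in WT went from 37.2 CPM in the first bin to a peak of 89.1 CPM in the fourth and 83.7 CPM in the last. In both cKO libraries it peaked in the third bin (74.5 and 77.6 CPM) and ended lower than it began (63.7 to 45.5 and 65.0 to 56.4 CPM).

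The shift in TA-like cells was spread over the cells and did not rest on a few of them. Each cell was thinned to 10000 UMIs, which left out 3 or 4 TA-like cells per library. The 7 genes then gave a median of 5 UMIs per cell in both cKO libraries (quartiles 3 to 8 and 3 to 7) and of 2 in WT (1 to 4). No UMI of any of them was seen in 5.53%, 2.48% and 9.96% of TA-like cells, and in at most 0.797% of any library before thinning. The tenth of cells with the most UMIs held 25%, 26.1% and 27.1% of them, so the share of the highest cells was not larger in the cKO libraries.

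In the mature enterocyte-like cluster the medians were 1, 1 and 3 UMIs per thinned cell. Cells without any UMI of the 7 genes were 26.2%, 24.3% and 8.87% after thinning, and 4.36%, 3% and 1.22% before. No cell class is known to lack these enzymes, so no class gave a background level for free RNA in this measure. Olfm4, a stem cell gene, gave 6 UMIs in each library's mature cluster (0.566 to 0.657 CPM).

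**Figure D4:**
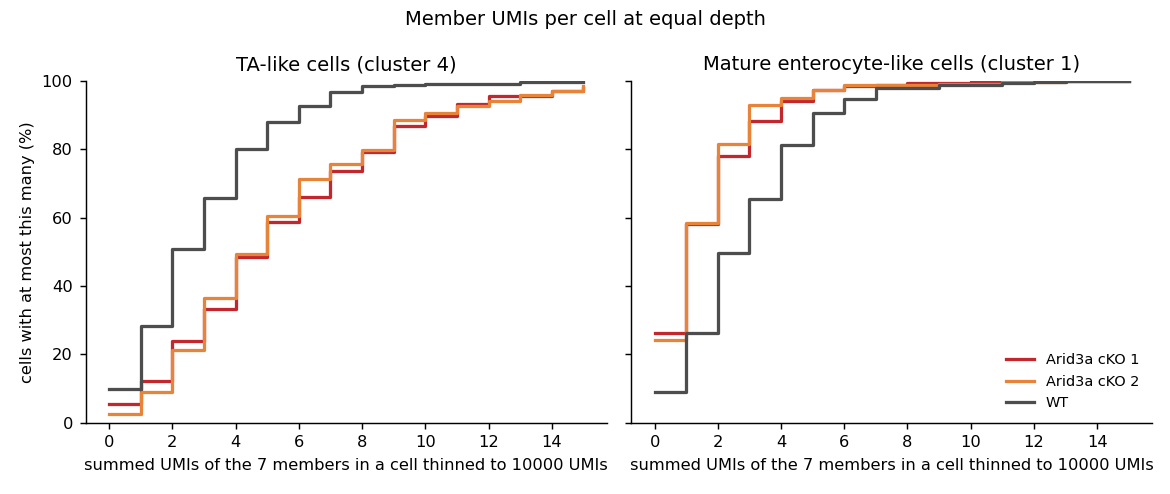
Share of cells (%) with at most a given number of UMIs of the 7 genes, each cell thinned to 10000 UMIs, in TA-like cells (left) and mature enterocyte-like cells (right), by library. The cKO curves lie to the right of WT on the left (median 5 against 2 UMIs) and to its left on the right (median 1 against 3 UMIs).

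Among the other classes the 7 genes were high in goblet-like (764, 632 and 616 CPM summed), enteroendocrine-like (719, 589 and 809 CPM) and tuft-like cells (818, 595 and 824 CPM) and low in Paneth-like cells (86.7, 88.9 and 80.9 CPM). In enteroendocrine-like and tuft-like cells cKO 2 was the lowest library and WT the highest. None of the 7 genes was called there or in Paneth-like cells by edgeR or DESeq2 (1, 1, 0 and 0 had an unadjusted p below 0.05), where 1.39%, 0.0428%, 0.625% and 0.419% of genes were called in either direction. These classes hold between 17 and 143 cells per library, and the absence of a call does not show equal levels.

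The order of the classes was not the same for each gene, and neighbours in it often overlapped. Hmgcs1 was highest in tuft-like cells (296 ± 73.0 CPM, SD over 3 libraries), which overlapped enteroendocrine-like cells (279 ± 77.4 CPM), followed by goblet-like cells (212 ± 45.4 CPM). TA-like (112 ± 38.4 CPM) and enterocyte-like cells (103 ± 15.9 CPM) overlapped each other, and ISC-like cells (60.2 ± 15.7 CPM) and Paneth-like cells (29.8 ± 1.21 CPM) stood below without overlap. Sqle was highest in enteroendocrine-like cells (101 ± 18.9 CPM), Insig1 too (106 ± 16.9 CPM), and Idi1 in TA-like cells (103 ± 25.6 CPM), which overlapped goblet-like cells (96.2 ± 8.80 CPM). Fdps and Cyp51 were highest in tuft-like cells (105 ± 25.8 and 115 ± 17.1 CPM), and Lss in goblet-like cells (15.9 ± 0.89 CPM), each overlapping the next class. By CPM every gene was lowest in Paneth-like cells, whose leading genes include many defensins and whose markers take up most of the UMIs.

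Many other enzymes of the pathway were also higher in the cKO libraries. Of 20 cholesterol synthesis enzymes (the 6 above included), 19 had both cKO libraries above WT in ISC and TA cells. Over all genes tested this share was 32.9%. The median log2 ratio over the 20 was 0.40. Of the 20, 10 were called higher, against 0.602% of all genes, and none lower. Besides Hmgcs1, Idi1, Fdps, Sqle and Cyp51 they included Msmo1 (65.0, 72.2 and 39.4 CPM, edgeR adjusted p = 0.000296), which acts soon after Cyp51, Fdft1 (36.4, 41.0 and 24.6 CPM, edgeR adjusted p = 0.00714), which makes squalene, Mvd (21.4, 21.1 and 13.8 CPM, edgeR adjusted p = 0.00912) and Nsdhl (27.1, 29.2 and 19.6 CPM, edgeR adjusted p = 0.0482). Of the late enzymes, Ebp at 141, 149 and 133 CPM and Dhcr7 at 23.9, 22.7 and 20.4 CPM were not called. DESeq2 called 3 of the 20.

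In enterocytes as a whole none of the 20 enzymes was called by edgeR (4 had an unadjusted p below 0.05) or by DESeq2, and the median log2 ratio was -0.10. In the mature cluster 10 of the 20 were called lower, against 1.75% of all genes, and none higher. They included Mvd (4.34, 3.62 and 9.88 CPM, edgeR adjusted p = 4.66e-05), Msmo1 (37.6, 42.2 and 65.0 CPM, edgeR adjusted p = 3.14e-06) and Fdft1 (8.20, 9.20 and 15.8 CPM, edgeR adjusted p = 0.000421).

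**Figure D5:**
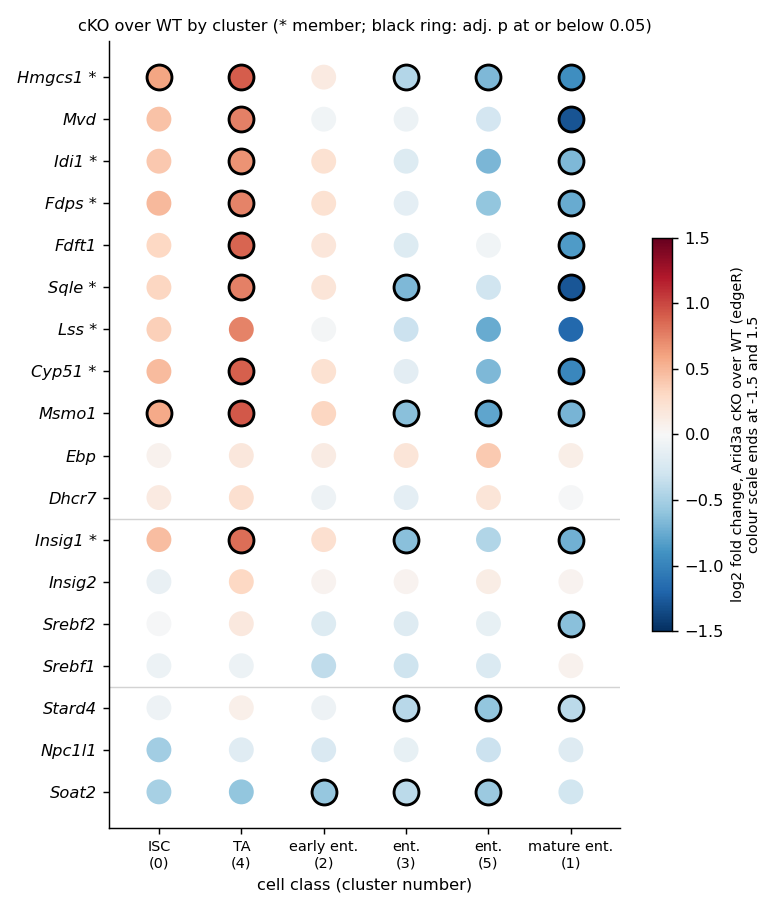
Log2 fold change of cKO over WT (edgeR) for genes of sterol synthesis (top), sensing (middle) and uptake or storage (bottom) in ISC-like, TA-like and 4 enterocyte-like clusters; red is higher in cKO, blue lower, a black ring marks an adjusted p at or below 0.05 and a star marks the 7 genes. Most synthesis genes are red in the TA column (Msmo1 0.93) and blue in the mature enterocyte column (Hmgcs1 -0.94), while no ring marks Ebp or Dhcr7 in any column.

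Among the genes that sense sterols, few calls were made. Of 12 genes of sterol sensing and SREBP control, only Insig1 was called in ISC and TA cells or in enterocytes. Over all genes, 0.602% were called higher in ISC and TA cells and 1.83% lower in enterocytes. Srebf2, which encodes SREBP2, was at 31.2, 30.5 and 29.1 CPM in ISC and TA cells (edgeR adjusted p = 0.993) and at 25, 24.7 and 28.8 CPM in enterocytes (edgeR adjusted p = 0.317). In the mature cluster alone Srebf2 was lower, at 9.99, 12.9 and 17.7 CPM (log2 fold change -0.62, edgeR adjusted p = 0.0146). Insig2, the paralog of Insig1, was at 15.7, 17.3 and 15.4 CPM in ISC and TA cells and at 26.5, 28.6 and 26.2 CPM in enterocytes, with no call. Srebf2 and Insig2 were picked as the pathway's regulators after values had been seen.

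Of 6 known SREBP2 targets outside synthesis, 2 were called lower in enterocytes, Stard4 among them, where 1.83% of all genes were. None of the 6 was called in ISC and TA cells by edgeR (2 had an unadjusted p below 0.05) or by DESeq2. Stard4, a carrier of cholesterol between membranes, was at 111, 96.9 and 134 CPM in enterocytes (edgeR adjusted p = 0.0351).

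Of 11 genes of sterol efflux and storage, Soat2, which esterifies cholesterol in enterocytes, was the only one called in enterocytes (67.3, 69.5 and 93.4 CPM, log2 fold change -0.46, edgeR adjusted p = 0.00574). Of all genes tested in enterocytes, 1.83% were called lower. Npc1l1, the importer of dietary cholesterol, was at 205, 182 and 232 CPM there (-0.27, edgeR adjusted p = 0.174). Of 10 fatty acid synthesis genes, which SREBP1 rather than SREBP2 mainly controls, none was called in ISC and TA cells (9 tested, 1 with an unadjusted p below 0.05) or in enterocytes (2 with an unadjusted p below 0.05) by edgeR, or by DESeq2. Elovl6 was at 51.2, 55.5 and 46.6 CPM in ISC and TA cells. The difference of the cKO effect between ISC and TA cells and enterocytes was called, more positive in ISC and TA cells, for 9 of the 20 enzymes. The same held for 1 of the 6 SREBP2 targets outside synthesis, against 0.324% of all genes. Among the fatty acid genes it was called in that direction for Scd2 (1.13 ± 0.27, edgeR adjusted p = 0.0206), and for no gene of sterol efflux.

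Between themselves the 6 enzymes had similar profiles over the 12 clusters. The lowest within-library Pearson r between Hmgcs1, Sqle, Idi1, Fdps and Cyp51 was 0.70 (Hmgcs1 with Idi1 in WT), and with Lss, which has few UMIs, it was 0.42 (with Sqle in cKO 2). For Insig1 the r with the enzymes in WT was between 0.08 (with Lss and with Idi1) and 0.49 (with Hmgcs1), against 0.61 to 0.73 in cKO 1 and 0.47 to 0.65 in cKO 2, so the ranges of WT and cKO 2 overlapped. These are descriptions over 12 clusters that share a library, its depth and its cells. Outside the sterol and fatty acid lists, the genes whose profile over clusters was most like the mean of the 7 were Rpn1 (lowest r of the 3 libraries 0.91), Plekha6 (0.89), Hsp90b1 (0.88), Tm9sf3 (0.88), Fam83e (0.87), Srp14 (0.87), Gpr108 (0.86), Klf9 (0.86), Exoc5 (0.85) and Trabd (0.85), out of 5302 genes compared.

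Other quantities moved with these results. In ISC and TA cells the heat shock genes Hsph1 (50.4, 62.7 and 175 CPM, edgeR adjusted p = 4.35e-23), Hsp90aa1 (653, 775 and 1235 CPM, edgeR adjusted p = 9.96e-06) and Hspa8 (1153, 1375 and 1818 CPM, edgeR adjusted p = 0.0231) were lower in cKO and the immediate early gene Atf3 higher (413, 228 and 185 CPM, edgeR adjusted p = 6.59e-05), out of 12 genes of that list, whose summed level was 7747, 6943 and 7964 CPM. Markers of Paneth cells summed to 692, 828 and 1165 CPM there over 9 genes and those of enterocytes to 2729, 3196 and 3497 CPM over 19 genes, highest in WT in both cases, with no gene of either list at 0. In the mature cluster 9 goblet markers summed to 309, 864 and 1241 CPM, with none of them at 0. The 5 proximal genes summed to 2147, 2831 and 1291 CPM in enterocytes and to 441, 409 and 341 CPM in ISC and TA cells, with no gene at 0 and with S100g and Slc40a1 called higher in both. All 4 distal genes were below WT in both cKO libraries in enterocytes (37.0, 31.4 and 41.5 CPM summed), none called by edgeR (1 with an unadjusted p below 0.05) or DESeq2. The median share of mitochondrial UMIs was 3.72%, 3.18% and 4.28% in TA-like cells and 6.15%, 5.48% and 6.33% in the mature cluster, and the median depth was 42176, 48173.5 and 38844 UMIs and 30403, 33927 and 30073 UMIs. The part of these quantities in the sterol results was not tested. The libraries carry no batch label, so library and genotype cannot be told apart for WT.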

How the data were processed

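The authors sequenced 10x Genomics 3′ libraries of crypts dissociated and sorted as living, Epcam-positive, CD45-negative and CD31-negative cells, and per the file headers made the deposited UMI counts with CellRanger 5.0.0. The submitters' processing notes name human builds only, so the mouse build of the counting is not given in the sources used here. Of the feature identifiers, 99.6% were in GENCODE M21 (GRCm38). RefSeq sequences are of GRCm38.p6.

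Cells with at least 1000 genes and at most 15% mitochondrial UMIs were kept (5594 of 25554 barcodes). Scrublet marked 110 of them, which the main analysis kept. Libraries were integrated in Seurat 5.3.0 (R 4.3.3; 3000 features, 30 components, resolution 0.3) without the 59 sterol and fatty acid genes. Clusters were named from fixed markers by a rule set after they had been seen: at least 3 markers of a class among a cluster's top 50 genes by fold, or else at least 3 at 1.5 times their level in ISC-like cells, counting genes seen in 25% of a cluster's cells. This gave 12 clusters, of which 1 (51 cells, led by Ghrl, Gip and Acta1) stayed unnamed. The tuft-like cluster, with 0.294 times its libraries' median UMIs, kept its name for 6 tuft markers among its top 10 genes.

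UMIs were summed per library and cell group, scaled to CPM and tested with edgeR 4.0.16 (quasi-likelihood, TMM, filterByExpr, Benjamini-Hochberg; called at an adjusted p of 0.05). The edgeR test of the cell groups and that of the difference between ISC and TA cells and enterocytes were tried on simulated counts. The tests within single clusters were not. Log2 ratios use CPM + 5. Intervals are 95% and cover counting error only. DESeq2 1.42.0, other filters, cell limits, scaling and clustering were alternatives. Pseudotime was computed in scanpy 1.11.5. The 7 genes, the gene lists and the markers were chosen with earlier results of these data known. Named besides the 7 genes were, per list, up to 4 genes past the test or else the highest, and the 10 most alike in profile. Nsdhl, Ebp, Dhcr7, Srebf2, Insig2, Npc1l1 and Scd2 were named outside this rule, after their values had been seen. A few genes of the lists are not reported here.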

Additional observations from a re-analysis of the deposited data

Results flagged for a closer look

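For 6 of the 7 genes the log2 fold change of cKO over WT in ISC and TA cells differed from that in enterocytes. With 1 WT library, genotype and library cannot be told apart here. The difference itself was tested (edgeR, adjusted over 15128 genes, each library as its own reference). The difference on the log2 scale was 1.07 for Hmgcs1 (0.79 in ISC and TA cells, -0.29 in enterocytes; edgeR adjusted p = 1.08e-07), 1.08 for Insig1 (0.70 and -0.38; edgeR adjusted p = 1.39e-07) and 0.84 for Cyp51 (0.73 and -0.11; edgeR adjusted p = 8.79e-05). It was 0.74 for Sqle (0.60 and -0.14; edgeR adjusted p = 0.00195), 0.68 for Fdps (0.64 and -0.05; edgeR adjusted p = 0.00354) and 0.77 for Lss (0.57 and -0.20; edgeR adjusted p = 0.0491), whose own effect was called in neither cell group. The direction was positive in ISC and TA cells in 2 of 2 cKO libraries for each of the 6 genes.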

How the results depend on the processing

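The log2 ratios of the 7 genes in ISC and TA cells stayed positive under all alternatives, while the number of calls depended on the test. Genes called in ISC and TA cells were 197, and 40 with DESeq2, 60 without TMM factors, 77 with a filter at a mean of 20 CPM and 105 with wider cell limits (25% mitochondrial UMIs, 500 genes, reclustered). Of the 7 genes 6 were called, and 2, 1 and 3 with DESeq2, without TMM factors and with wider limits. In enterocytes 437 genes were called, and 98 with DESeq2, 720 without a filter on low counts, 36 at 20 CPM and 144 with wider limits. Of the 7 genes 1 was called, and 0 with DESeq2, the 20 CPM filter or wider limits. In all epithelial cells 116 genes were called, and 677 without a filter, 37 at 20 CPM and 70 without Scrublet doublets. Within clusters (added after seeing the data), DESeq2 called 0 of the 7 in the ISC-like, Ms4a18 and Akp3 clusters, 2 in the TA-like and 1 in the mature cluster, and edgeR without TMM factors 0 in the ISC-like cluster. Leaving out the early enterocyte-like cluster (also added after seeing the data) raised the calls among the 7 in enterocytes from 1 to 5 (Hmgcs1, Sqle, Fdps, Cyp51 and Insig1) and moved their median log2 ratio from -0.11 to -0.44 and that of the 20 enzymes from -0.10 to -0.27. The median of the 7 in enterocytes was -0.16 with wider limits, -0.15 at resolution 0.8 and -0.17 with clusters weighted equally. The median of the enzymes was 0.13 against 0.10 in all epithelial cells with TMM-scaled CPM, and in ISC and TA cells 0.50 with a pseudocount of 1 CPM and 0.41 at resolution 0.8 against 0.40. With either cKO replicate left out (a single library against WT, so no test), the median of the 7 was 0.53 to 0.59 in ISC and TA cells, -0.14 to -0.09 in enterocytes and 0.07 to 0.12 in all epithelial cells, and that of the enzymes 0.42 to 0.43, -0.14 to -0.05 and 0.0882 to 0.117. With 10 bins the ratio of cKO to WT was 1.61 in the first bin and 0.61 in the last. By Spearman rho 4 of the 10 genes most alike stayed. Log2 fold changes near 0 that turned direction, none of them called, were in all epithelial cells those of Hmgcs1 (-0.0128 without TMM factors, -0.0349 at 20 CPM, -0.0872 with wider limits), Lss (-0.0216 with wider limits) and Insig1 (-0.0313, -0.0529 and -0.165 in the same order as Hmgcs1, -0.0139 without doublets), and in enterocytes Idi1 (-0.00869 at resolution 0.8, -0.395 without the early cluster) and Fdps (0.0166 with wider limits). The causes were not tested. No paired analysis was possible because WT and cKO have a single replicate number in common. Depth limits Lss most, with 151 UMIs in ISC and TA cells of WT.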

Other observations

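Barcodes left out for a mitochondrial share over 15% (with at least 1000 genes) numbered 1937, 2077 and 3206 (cKO 1, cKO 2 and WT, in that order throughout). Scaled to non-mitochondrial UMIs, the 7 genes summed to 319, 309 and 494 CPM in them, with 95% counting intervals of 309 to 328, 300.3 to 319 and 484 to 503 CPM. In the cells that were kept the same measure was 400, 376 and 366 CPM. WT was thus above both cKO libraries in the barcodes left out and below both in the cells kept, and the cell types of the former were not examined here.

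The enterocyte-like cluster led by interferon-response genes (59 cells) was not tested and had 111, 96.2 and 204 CPM of the 7 genes. The unnamed cluster had 230, 214 and 302 CPM.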
